A study of Homo sapiens with 27 samples.

Results

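The 10 genes followed here regulate the mitochondrial pathway of apoptosis: the anti-apoptotic BCL2, BCL2L1, MCL1 and BCL2A1, the pore-forming effectors BAX and BAK1, and the BH3-only genes BBC3, PMAIP1, BCL2L11 and BIK. They were chosen by name as the rows of a gene count table whose Entrez identifiers map to these symbols. All 10 were found among the 24566 rows of the table, and all 10 passed the filter on low counts in both cell lines, BCL2A1 in MDA-MB-231 only through the libraries given 5-fluorouracil alone. RNA sequencing read counts came from 27 libraries of 2 established human lines, 1 line for each cancer: MDA-MB-231, a breast adenocarcinoma line, and A431, an epidermoid carcinoma line. The study asked how Compound Kushen injection (CKI), an extract of Kushen and Baituling roots, acts together with a chemotherapy drug. MDA-MB-231 cells were left untreated, given CKI at 1 mg/ml (a dilution of 1 in 20), given 5-fluorouracil (5-FU, an inhibitor of thymidylate synthesis) at 10 µg/ml, or given CKI plus 5-FU. A431 cells were left untreated, given a vehicle control, CKI at 1 mg/ml, doxorubicin (a DNA intercalator that blocks topoisomerase II), or CKI plus doxorubicin. Each of the 9 groups held 3 replicates collected after 48 h. The dose of doxorubicin and the make-up of the vehicle control are not given here, because the labels do not fix them.

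BCL2 family proteins decide whether the outer mitochondrial membrane stays closed. The anti-apoptotic proteins hold the effectors BAX and BAK1 and the BH3-only proteins in check, and BH3-only proteins either occupy the groove of the anti-apoptotic proteins or activate the effectors, which then form pores that release cytochrome c. Much of this control is post-transcriptional, and MCL1 and PMAIP1 encode short-lived proteins.

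On GRCh37, the build of the deposited counts, the anti-apoptotic genes lie at chr18:60790579-60987361 (BCL2), chr20:30252255-30311792 (BCL2L1), chr1:150533371-150552214 (MCL1) and chr15:80253234-80263538 (BCL2A1). The effectors lie at chr19:49458072-49465055 (BAX) and chr6:33540324-33548070 (BAK1). The BH3-only genes lie at chr19:47724079-47736023 (BBC3), chr18:57567228-57571537 (PMAIP1), chr2:111876955-111926021 (BCL2L11) and chr22:43506756-43525718 (BIK). Each value rests on the reads counted for the whole gene, so transcript variants are not told apart.

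Promoter sequences were available for 8 of the 10 members, with 2 entries for BCL2L1, in RefSeq for GRCh38.p14. MCL1 and BIK were not matched. The promoters of 3 members are shown, each as the 250 bases before the transcript start, 5′ to 3′ on the gene's own strand: that of BCL2A1, the member with the widest range of levels, and those of PMAIP1 and BCL2L11, which moved together across the libraries of each line (Pearson r = 0.88 over 15 A431 libraries and 0.78 over 12 MDA-MB-231 libraries). The pair was not particular in MDA-MB-231, where r of BCL2L11 was higher with BCL2A1 (0.91), BIK (0.85), BAK1 (0.81) and MCL1 (0.79). The promoters shown have these positions on GRCh38.p14. In the order BCL2A1, PMAIP1 and BCL2L11, they lie at chr15:79971197-79971446 (minus strand), chr18:59899746-59899995 (plus strand) and chr2:111120664-111120913 (plus strand). Capitals mark TATAAA in BCL2A1 and GGGCGG, on either strand, in the other two.
BCL2A1: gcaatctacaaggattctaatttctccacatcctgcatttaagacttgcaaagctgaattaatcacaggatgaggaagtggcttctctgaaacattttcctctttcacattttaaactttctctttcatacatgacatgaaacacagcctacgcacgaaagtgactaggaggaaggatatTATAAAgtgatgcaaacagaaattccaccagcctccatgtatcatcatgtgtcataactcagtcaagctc
PMAIP1: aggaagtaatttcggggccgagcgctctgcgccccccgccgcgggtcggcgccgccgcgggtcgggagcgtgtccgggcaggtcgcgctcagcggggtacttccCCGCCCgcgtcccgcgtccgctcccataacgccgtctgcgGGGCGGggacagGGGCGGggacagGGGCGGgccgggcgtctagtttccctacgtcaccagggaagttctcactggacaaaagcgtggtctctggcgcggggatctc
BCL2L11: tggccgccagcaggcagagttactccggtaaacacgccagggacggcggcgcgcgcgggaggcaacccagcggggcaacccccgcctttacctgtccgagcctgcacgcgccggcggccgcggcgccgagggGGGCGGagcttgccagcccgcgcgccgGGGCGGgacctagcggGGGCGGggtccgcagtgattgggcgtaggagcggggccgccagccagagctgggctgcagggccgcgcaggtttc

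The BCL2A1 promoter was the AT-rich one of these, with 38.8% GC (percentile 10.8 of 35116 promoters), 2 CpG dinucleotides and 1 TATAAA that began 70 bases before the start. PMAIP1 had 72.8% GC (percentile 85.3), 36 CpG and 4 GGGCGG matches. BCL2L11 had 76.8% GC (percentile 92.5), 34 CpG and 3 GGGCGG matches. The median promoter had 58% GC and 11 CpG. TATAAA stood in 10.7% of all promoters of this length and GGGCGG in 42.6%, with both strands searched. The other motifs searched were CCAAT (32% of promoters), TGACTCA (4.2%), CACGTG (6.34%), the NF-kappa-B consensus (5.21%) and a p53 decamer (5.57%), and none of these stood in the promoter of BCL2A1 or PMAIP1. CCAAT stood in the promoters of BAX (2 matches) and of BAK1, BBC3 and BCL2L11 (1 match each). BAX also held 4 CACGTG matches, BBC3 held 1 TGACTCA and 1 CACGTG, and BAK1 held 1 p53 decamer. Of the promoters not shown, 1 BCL2L1 entry held 2 TATAAA matches, BAX held 1 GGGCGG and BAK1 held 2. A match describes the letters of the window and does not show binding.

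Total counts per library ranged from 17757206 to 22809339, so that 3 counts, the limit that a count of 0 allows, equalled 0.132 to 0.169 CPM (counts scaled to library size). Marker genes matched the labelled lines: of 8 keratinocyte-type markers, 8 averaged at least 1 CPM in A431 (7330 to 10600 CPM summed per library, against 352 to 530 in MDA-MB-231), and of 5 mesenchymal markers, 5 did so in MDA-MB-231 (2280 to 3590 CPM summed, against 657 to 1310 in A431). The lists did not part the lines fully, since 4 of the 8 keratinocyte-type markers averaged at least 1 CPM in MDA-MB-231 and 3 of the 5 mesenchymal ones in A431, among them CD44, higher in A431 under CKI (mean 1152 CPM) than in any MDA-MB-231 group (at most 888). Of ESR1, PGR and GATA3, which this line is known to lack or hold at low levels, 1 reached 1 CPM there. Of 3 leukocyte markers 1, CD14, averaged 1 CPM or more over each line, and of 3 fibroblast markers 1 did in A431 and 2 in MDA-MB-231. PTPRC, the leukocyte gene for CD45, stood at 1.16 to 1.54 CPM in the A431 libraries given doxorubicin and at 1.19 to 1.95 CPM in those given CKI plus doxorubicin, against 0 counts in the 9 other A431 libraries. Some libraries stood apart before any group was compared. Replicate 1 of 5-FU in MDA-MB-231 held more counts of several keratinocyte-type markers than its group mates. KRT5 had 86 against 17 and 25, KRT14 50 against 9 and 7, and CDH1 34 against 12 and 14. TP63 (23 against 23 and 22) did not part it, and the source of these counts was not tested. Replicate 1 of the untreated MDA-MB-231 cells differed from the other two in a way that followed GC content (Spearman rho across genes -0.64), and the vehicle control libraries of A431 differed among themselves (rho -0.57, -0.11 and 0.63). Whether counting used strand is not stated, and the exons of BCL2L1 share 1735 bases with the antisense gene ABALON, those of BCL2L11 share 727 with MIR4435-2HG and those of MCL1 share 371 with ADAMTSL4 and its antisense gene, so reads of these pairs may be mixed. Of the 371 bases, 328 are shared with ADAMTSL4-AS1, which lies on the strand of MCL1, so use of strand would not part those reads. BAK1 has the pseudogenes BAK1P1 and BAK1P2.

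Levels below are CPM scaled by TMM factors over all 27 libraries. Changes are log2 fold changes from edgeR's quasi-likelihood test with Benjamini-Hochberg adjustment over all genes of the fit, which sets its own TMM factors within each line, and "rose" and "fell" mean an adjusted p under 0.05. Because RNA was taken from whole cultures, fewer cells of a kind and less RNA per cell cannot be told apart. Nothing in the labels says that replicates came from separate cultures, and p-values measure only the spread between these samples.

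**Figure D1:**
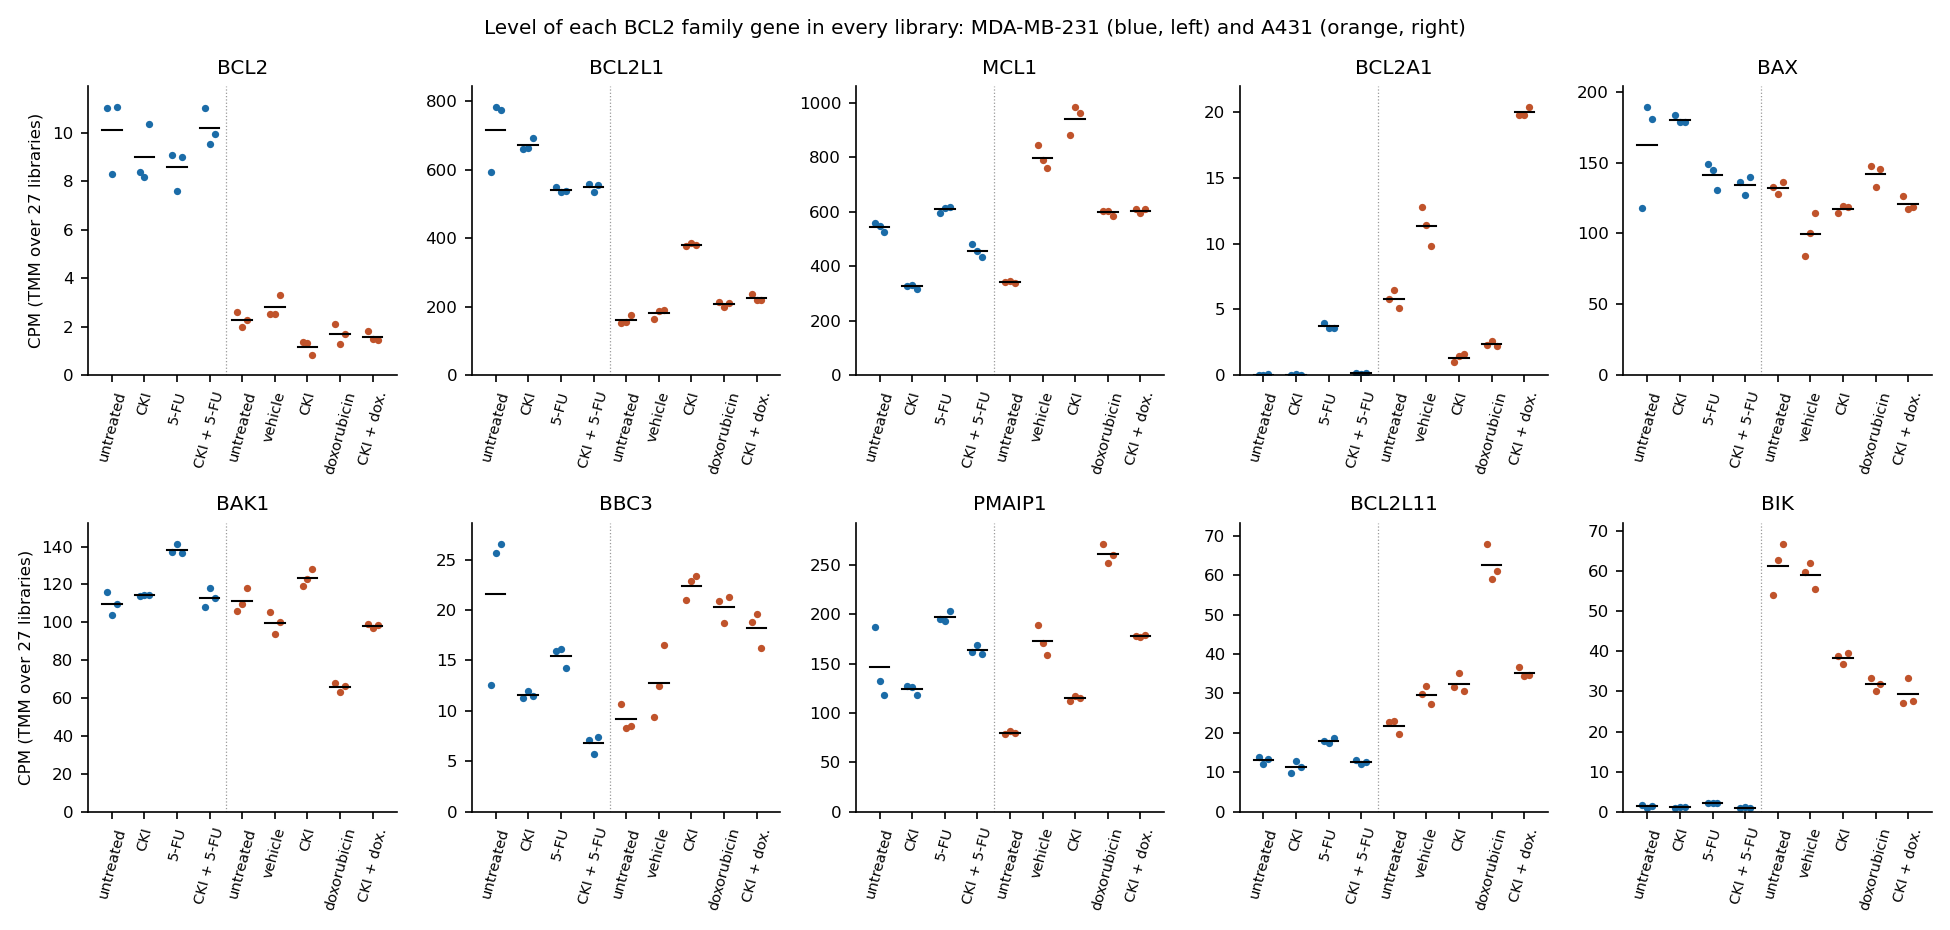
Level of each of the 10 genes (CPM, TMM-scaled over 27 libraries, axis from 0) in each library, with 1 point per library and a bar at the mean of 3, for the 4 MDA-MB-231 groups on the left and the 5 A431 groups on the right of the dotted line. BCL2A1 spans from 0 to 20.4 CPM, BIK sits at 0.847 to 2.1 CPM in MDA-MB-231 and at 27.2 to 66.8 CPM in A431, and untreated MDA-MB-231 cells show 1 point apart from the others for BAX, BBC3, BCL2L1 and PMAIP1.

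The untreated lines differed in which members were abundant. Set per kilobase of exon union so that genes can be compared, BCL2L1, which encodes BCL-XL, led in untreated MDA-MB-231 cells at 171 ± 25.5 CPM per kb (SD, n = 3), ahead of MCL1 at 87.3 ± 2.7. In untreated A431 cells BIK, a BH3-only protein of the endoplasmic reticulum, led at 64.4 ± 6.8 CPM per kb and MCL1 followed at 54.9 ± 0.521. That lead rests on the length used: per kilobase of the longest annotated transcript, BAX (97.5 ± 3.06) and MCL1 (75.1 ± 0.713) stood above BIK (64.4) in A431, while BCL2L1 still led in MDA-MB-231. BCL2 itself was the lowest member in A431 (0.182 ± 0.0258 CPM per kb) and the second lowest in MDA-MB-231 (0.803 ± 0.126 CPM per kb). The summed per-length level of the 4 anti-apoptotic genes was 259 ± 23.5 CPM per kb in MDA-MB-231 and 99.2 ± 1.99 in A431, while that of the 4 BH3-only genes was 77 ± 14.4 and 107 ± 6.67.

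Tested between the untreated lines, 8 of 10 members differed, 3 higher and 5 lower in A431, against 78.6% of 14848 genes tested (41.9% higher and 36.7% lower). BCL2 was 4.25-fold lower in A431 (log2 -2.09 ± 0.19 SE, adjusted p = 2.3e-07). Its 3 libraries there held 2.63, 1.98 and 2.29 CPM, below the 11, 8.29 and 11.1 CPM of MDA-MB-231. BCL2L1 was 4.3-fold lower (adjusted p = 2.6e-10), with 152, 154 and 175 CPM against 592, 781 and 774 CPM. MCL1 was 1.54-fold lower (343, 344 and 338 against 558, 547 and 525 CPM, adjusted p = 8.1e-07). None of these ranges overlapped. BCL2A1, which encodes the anti-apoptotic protein BFL-1, went the other way: MDA-MB-231 libraries held 0, 0 and 2 counts in the untreated group and A431 libraries 97, 118 and 82, a ratio per total count of 169 with an exact 95% interval of 46.3 to 1400 that covers counting error only. It passed the filter of this fit through A431 alone, so its place among the 3 higher members is no support. BIK was 46.5-fold higher in A431 (54.2, 62.8 and 66.8 against 1.67, 1.01 and 1.43 CPM, adjusted p = 1.2e-12), and BCL2L11, which encodes BIM, was 1.73-fold higher. BBC3, which encodes PUMA, and PMAIP1, which encodes NOXA, were 2.27-fold and 1.77-fold lower (adjusted p = 2.1e-04 and 7.5e-05). The effectors BAX (log2 -0.24, adjusted p = 0.095) and BAK1 (log2 0.07, adjusted p = 0.38) did not pass, but without replicate 1 of untreated MDA-MB-231 cells BAX was lower in A431 (log2 -0.43, adjusted p = 2.6e-09), and with offsets for GC content and length both effectors were (log2 -0.60 and -0.32). The ranges of 8 of 10 members did not overlap, against 77.6% of genes with a mean of at least 10 counts. BCL2A1, which entered through A431, is among the 8. Of 11 other family genes tested, 7 were higher and 3 lower, with BNIP3 at -2.99. HRK (65, 62 and 35 counts against 3, 1 and 4) and BCL2L14 (12, 5 and 9 counts against 5, 1 and 3) are among these and passed the filter only through A431. Of 13 downstream genes, 3 were higher and 8 lower, led by the inhibitor of apoptosis genes BIRC2 (-2.15) and BIRC3 (-1.35) and the caspase adaptor APAF1 (-1.18).

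With CKI alone, MDA-MB-231 cells lowered 2 members and raised none, against 36.2% of 13999 genes called (17.4% upward and 18.8% downward). MCL1 fell 1.68-fold (log2 -0.75 ± 0.054 SE, adjusted p = 1.2e-06), to 327, 332 and 318 CPM, below every untreated library. BBC3 fell 1.88-fold (log2 -0.91 ± 0.22, adjusted p = 0.0067), to 11.2, 12 and 11.5 CPM from 12.5, 25.6 and 26.6 CPM. The lowest untreated value, close to the CKI values, was that of replicate 1. The ranges of the other 8 members overlapped, so 2 of 10 members did not overlap, against 45.6% of genes. The median change of the members was -0.20 on the log2 scale, against -0.01 over all genes tested. Without untreated replicate 1, BBC3 stood at -1.18 and BCL2L1 also fell (log2 -0.22, adjusted p = 2.5e-05), while with the 6 compared libraries fitted alone BBC3 did not pass (adjusted p = 0.058). PMAIP1 passed without untreated replicate 3 (log2 -0.38, adjusted p = 0.023), as did BCL2L11 without CKI replicate 2 (-0.31, adjusted p = 0.042). Among 10 other family genes, 1 rose and 3 fell, with BNIP3 at -0.47, BCL2L12 at 0.34 and BID at -0.30. Of 13 downstream genes, 1 rose (CASP9, 0.28) and 2 fell (BIRC5, -0.33, and XIAP, -0.24).

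After 5-FU, 7 members changed in MDA-MB-231 cells, 6 upward and 1 downward, against 57.1% of genes (28.6% upward and 28.5% downward). One of the 6 is BCL2A1, which passed the filter only through the 5-FU libraries and so had to differ, which leaves 6 of the other 9 members, 5 upward and 1 downward. These values share the untreated libraries with those of CKI. BCL2A1 went from 0, 0 and 2 counts to 87, 75 and 76 counts, or 4, 3.57 and 3.62 CPM, with a ratio per total count of 125 and a counting interval of 34.3 to 1040. Every 5-FU library was above every untreated one. MCL1 rose 1.12-fold (596, 614 and 616 CPM, adjusted p = 0.02). BCL2L1 was the member that fell, 1.32-fold (550, 535 and 537 CPM, adjusted p = 0.0018), and it did so below each untreated library. BAK1 rose 1.26-fold, from 116, 104 and 110 CPM to 137, 141 and 136 CPM (adjusted p = 4.2e-04), whereas BAX did not pass (log2 -0.20, adjusted p = 0.23).

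The BH3-only genes split after 5-FU. PMAIP1 rose 1.35-fold (from 187, 133 and 119 CPM to 195, 193 and 203 CPM, adjusted p = 0.012), BCL2L11 rose 1.38-fold (from 13.9, 12.1 and 13.3 CPM to 17.9, 17.5 and 18.7 CPM, adjusted p = 0.0017) and BIK rose 1.52-fold (to 2.07, 2.05 and 2.1 CPM, adjusted p = 0.022), each without overlap. BBC3 had 16, 16.1 and 14.2 CPM, inside the untreated range, and did not pass (log2 -0.48, adjusted p = 0.071). Without untreated replicate 1, BBC3 (log2 -0.76, adjusted p = 2.7e-08) and BAX (log2 -0.39, adjusted p = 2.8e-07) both fell. Leaving out another library also moved single calls: MCL1 was lost without untreated replicate 3 or 5-FU replicate 2 or 3 (adjusted p = 0.066, 0.064 and 0.063), BIK without untreated replicate 2 or 5-FU replicate 2 or 3 (0.1, 0.051 and 0.055) and PMAIP1 without untreated replicate 2 (0.051), where BCL2 passed (log2 -0.37, adjusted p = 0.032). The 6 compared libraries fitted alone called 4 members in place of 7, BCL2A1 included in both, and MCL1, PMAIP1 and BIK no longer passed (adjusted p = 0.076, 0.061 and 0.051). In all, 7 of 10 members did not overlap, against 59.2% of genes. BCL2A1, which had to differ, is among the 7. The median change was 0.25 for the members, BCL2A1 included, and 0 over all genes. Of 10 other family genes, 4 rose and 4 fell, among them BNIP3 (-1.48) and BMF (-0.90). BCL2L15 is counted among those that rose but, with 13, 16 and 24 counts against 6, 8 and 9, it passed the filter only through the 5-FU libraries. Of 13 downstream genes, 7 rose and 1 fell, among them BIRC3 (log2 1.80) and XIAP, a caspase inhibitor (0.75).

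**Figure D2:**
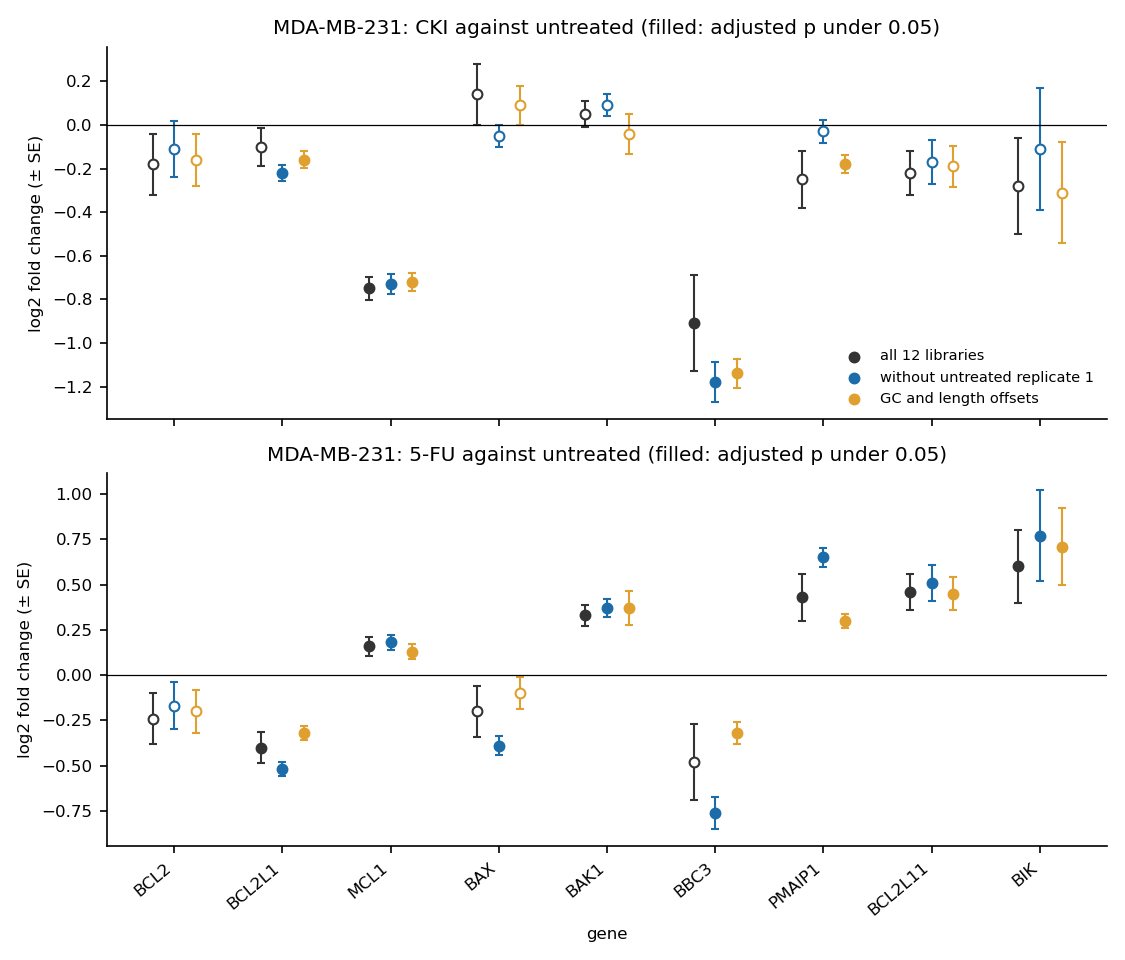
Fitted log2 fold change (± SE) in MDA-MB-231 cells for CKI (upper panel) and 5-FU (lower panel) against untreated cells, for 9 members (BCL2A1, with 2 counts or fewer in untreated and CKI libraries, is left out), with all 12 libraries, without untreated replicate 1, and with GC and length offsets; filled points have an adjusted p under 0.05. The filled point for MCL1 stays between -0.75 and -0.72 in the upper panel, and BBC3 moves from -0.91 to -1.18 there and from -0.48 to -0.76 in the lower panel when replicate 1 is left out.

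Adding CKI to 5-FU lowered 6 members and raised none relative to 5-FU alone, against 50.4% of genes (25.9% upward and 24.5% downward). BCL2A1, which entered through the 5-FU libraries, is 1 of the 6, which leaves 5 of the other 9. It held 4, 2 and 3 counts. The 238 counts of the 5-FU group stood against 9 in the combination, a ratio per total count of 26.6 (counting interval 13.8 to 58.9). MCL1 fell 1.33-fold, to 480, 457 and 435 CPM (adjusted p = 5.7e-05). BAK1 fell 1.23-fold, to 108, 118 and 113 CPM (adjusted p = 0.0013), and this call was lost with GC and length offsets (adjusted p = 0.07). Among the BH3-only genes, BBC3 fell 2.28-fold to 7.1, 5.74 and 7.45 CPM, BIK fell 2.12-fold to 0.847, 1.16 and 0.907 CPM, and BCL2L11 fell 1.42-fold to 13.1, 12.2 and 12.6 CPM (each adjusted p = 0.0011). PMAIP1, at 162, 169 and 160 CPM, lay below every 5-FU library but did not pass (log2 -0.27, adjusted p = 0.1). The ranges of 8 of 10 members did not overlap, against 69.8% of genes. BCL2A1, which entered through the 5-FU libraries, is among the 8. BCL2, BCL2L1 and BAX did not pass (log2 0.25, 0.02 and -0.07). The members' median, BCL2A1 included, was -0.35, against 0.01 over all genes. Of 10 other family genes, 3 rose and 5 fell, with BNIP3L at 0.63 and BNIP3 at 0.61. BCL2L15 is counted among the 5 but, with 12, 5 and 7 counts against 13, 16 and 24, it passed the filter only through the 5-FU libraries. Of 13 downstream genes none rose and 6 fell, with APAF1 at -0.95, XIAP at -0.79 and BIRC5, which encodes survivin, at -0.69.

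Set against CKI alone, the combination held 2 members higher and 3 lower, against 42.1% of genes (22.1% higher and 20.0% lower), with 5 of 10 not overlapping (66.4% of genes). MCL1 was 1.41-fold higher (adjusted p = 3.4e-05) and PMAIP1 1.33-fold higher (adjusted p = 0.023), while BCL2L1, BAX and BBC3 were 1.21-fold, 1.33-fold and 1.7-fold lower (adjusted p = 0.022, 0.029 and 0.021). BAX stood at 136, 127 and 139 CPM against 183, 178 and 179 CPM. For BCL2A1, 9 counts stood against 2, a ratio of 4.5 with a counting interval of 0.932 to 42.8. The change of all genes in this comparison tilted with GC content (rho -0.50), and with offsets for it 2 members were called, as BCL2L1, BAX and PMAIP1 did not pass (adjusted p = 0.39, 0.065 and 0.1). Leaving out CKI replicate 2 or 3 left 2 of the 5 calls each, the first with BCL2A1 as an added call, and leaving out combination replicate 1, 2 or 3 left 2, 1 and 3. BAX passed in none of the fits without 1 of these 6 libraries (adjusted p = 0.055 to 0.098), and MCL1 passed in all of them. Of the other family genes 1 rose and 4 fell (BOK -0.55, BMF -0.54, BNIP3 -0.40), and of the downstream genes 4 rose and 1 fell (BIRC3 1.43, BIRC2 0.68, BIRC5 -0.62).

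The change with CKI was also compared directly with and without 5-FU, as an interaction. It differed for 2 members, against 31.4% of genes (17.1% positive and 14.3% negative): MCL1, whose change with CKI was -0.75 alone and -0.41 on 5-FU (difference 0.34 ± 0.075, adjusted p = 0.0055), and BAK1, with 0.05 and -0.29 (difference -0.34 ± 0.083, adjusted p = 0.0084). For BCL2A1, which entered only through the 5-FU libraries, no call is given. Without untreated replicate 1 the difference passed for 6 members, BCL2L1 (0.24), BCL2L11 (-0.33), BIK (-0.97) and PMAIP1 (-0.24) being added. BCL2 passed without untreated replicate 2 (0.56, adjusted p = 0.03). Among the other family genes the largest differences were those of BNIP3 (1.09), BCL2L12 (-0.64) and BNIP3L (0.47), with 3 positive and 2 negative of 10. Of 13 downstream genes 4 had a negative difference, with APAF1 at -0.79 and XIAP at -0.54.

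In A431 cells the vehicle control alone changed 7 members relative to untreated cells, 6 upward and 1 downward, against 42.5% of 15881 genes (23.2% upward and 19.3% downward). MCL1 rose 2.35-fold, to 844, 789 and 759 CPM (log2 1.23 ± 0.054 SE, adjusted p = 3.3e-14). PMAIP1 rose 2.18-fold, from 78.4, 81.5 and 79.7 CPM to 190, 170 and 158 CPM (adjusted p = 3.7e-12). BCL2A1 rose 1.96-fold, from 5.79, 6.48 and 5.07 CPM to 12.8, 11.4 and 9.81 CPM (adjusted p = 3.4e-06). These 3 genes showed no overlap between the groups. BCL2L11 rose 1.37-fold, BBC3 1.41-fold and BCL2L1 1.13-fold, the last 2 with overlapping ranges, and BAX fell 1.32-fold (84.4, 100 and 114 CPM against 133, 128 and 136 CPM, adjusted p = 2.8e-04). Across all genes this comparison tilted with GC content (rho -0.63). The transcripts of PMAIP1, BCL2A1 and MCL1 hold 36.7%, 40.9% and 44.7% GC, and that of BAX 58.9%. BBC3 and BCL2L1, which also rose, hold 69.7% and 58.2%. With offsets for GC content and length the BAX call was lost (log2 -0.07, adjusted p = 0.37) and BIK, otherwise at -0.04, stood at 0.21 (adjusted p = 0.029). The BCL2L1 call was lost without untreated replicate 1 or 2 or vehicle replicate 2 or 3 (adjusted p = 0.071 to 0.14) and that of BBC3 without untreated replicate 2 or vehicle replicate 3 (0.053 and 0.09), while BAK1 fell without untreated replicate 1 or vehicle replicate 1 (log2 -0.18 and -0.19). In all, 6 of 10 members did not overlap, against 48.8% of genes, and the medians were 0.38 for the members and 0 for all genes. Of 11 other family genes 2 rose and 4 fell (BOK -0.58, BMF -0.48, BCL2L12 -0.41), and of 13 downstream genes 6 rose and 1 fell (BIRC3 0.92, XIAP 0.55, APAF1 0.43).

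Under CKI, 9 members changed in A431 cells relative to untreated cells, 5 upward and 4 downward, against 67.0% of genes (33.3% upward and 33.7% downward), and all 10 ranges were apart, against 78.7% of genes. BAK1 was the member that did not pass: its libraries held 119, 123 and 128 CPM against 106, 110 and 118 CPM, but with factors set within the line its change was 0.06 (adjusted p = 0.42). The 2 abundant anti-apoptotic genes rose together, MCL1 2.59-fold to 881, 982 and 961 CPM (adjusted p = 4.8e-16) and BCL2L1 2.22-fold to 376, 387 and 380 CPM (adjusted p = 2.6e-13). The 2 scarce ones fell. BCL2A1 fell 4.63-fold to 0.968, 1.42 and 1.63 CPM (adjusted p = 1.7e-10), and BCL2 fell 2.05-fold to 1.38, 1.32 and 0.844 CPM (adjusted p = 6.8e-04). BBC3 rose 2.29-fold, from 10.7, 8.3 and 8.54 CPM to 21, 22.9 and 23.4 CPM (adjusted p = 7.0e-08). BIK, the BH3-only gene with the highest per-length level in untreated cells, fell 1.7-fold to 38.9, 36.9 and 39.5 CPM (adjusted p = 2.7e-08). PMAIP1 rose 1.35-fold and BCL2L11 1.4-fold, and BAX fell 1.2-fold (adjusted p = 0.0039). With GC and length offsets the BAX change turned to 0.14 (adjusted p = 0.016) and BAK1 passed at 0.34. The members' median was 0.25, against 0 over all genes. The summed level of the 3 fibroblast markers, 1 of which reached 1 CPM, was 46.1 to 51 CPM under CKI and 21.1 to 28.6 CPM in untreated cells, with DCN at 0 under CKI, and its part in these changes was not tested. Of 11 other family genes 5 rose and 5 fell, with BCL2L12 at -1.93, BNIP3 at -1.23 and BCL2L14 at 0.91, the last on 29, 17 and 12 counts against 12, 5 and 9. Of 13 downstream genes 6 rose and 3 fell, with BIRC5 at -2.23, XIAP at 0.78 and the protease HTRA2 at -0.65.

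Several of these values differed between the 2 controls. Against the vehicle control, 8 members changed with CKI, 4 upward and 4 downward, against 65.0% of genes (32.0% upward and 33.0% downward), and 8 of 10 ranges were apart (72.4% of genes). BCL2L1 (log2 0.97), BCL2 (-1.34), BCL2A1 (-3.18), BBC3 (0.71) and BIK (-0.72) kept the direction they had against untreated cells. MCL1 was 1.1-fold higher than in the vehicle control (adjusted p = 0.026), and this call was lost with the 6 libraries alone (adjusted p = 0.051) and without replicate 2 or 3 of either group (0.087 to 0.14). PMAIP1 turned direction, at 112.5, 117.5 and 115.3 CPM below every vehicle library and above every untreated one (log2 -0.69, adjusted p = 9.3e-10). BCL2L11 (log2 0.03, adjusted p = 0.78) and BAX (log2 0.13, adjusted p = 0.13) did not pass, and BAK1 rose 1.15-fold (adjusted p = 0.0054). Without vehicle replicate 2 the BAK1 call was lost (adjusted p = 0.053), and without vehicle replicate 3 BAX passed (log2 0.24, adjusted p = 0.0019). The medians were 0.08 for the members and 0 for all genes. Of the other family genes 3 rose and 3 fell (BCL2L12 -1.52, BNIP3 -1.12, BCL2L14 0.86). The BCL2L14 value rests on 29, 17 and 12 counts against 10, 12 and 7. Of the downstream genes 3 rose and 5 fell (BIRC5 -2.06, BIRC3 -0.99, cytochrome c gene CYCS -0.77).

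**Figure D3:**
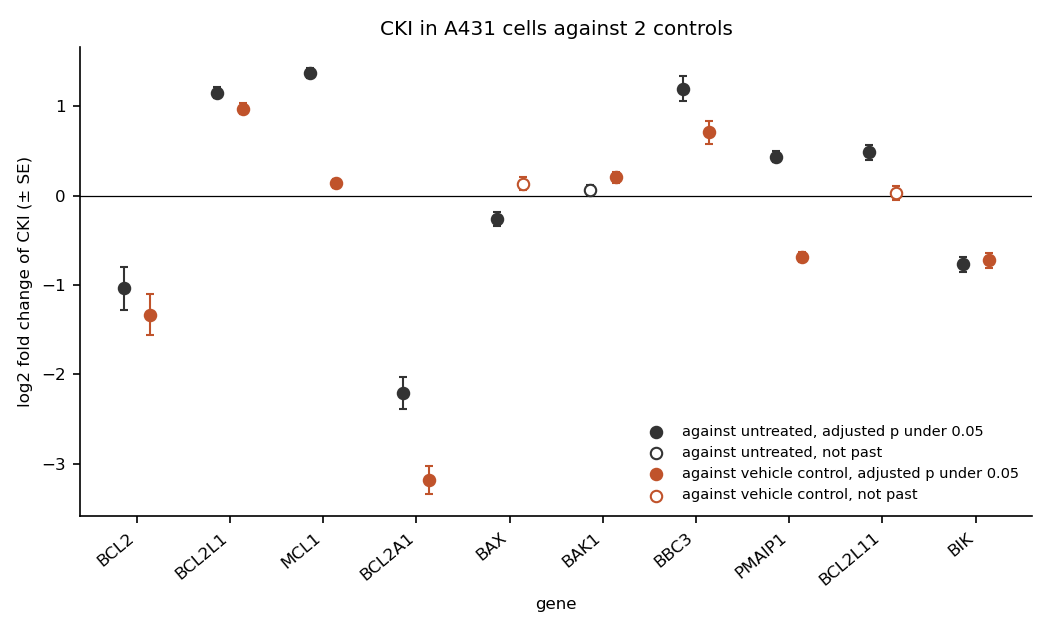
Fitted log2 fold change (± SE) of each member with CKI in A431 cells against untreated cells (black) and against the vehicle control (orange); filled points have an adjusted p under 0.05. MCL1 falls from 1.37 to 0.14 between the controls and PMAIP1 from 0.43 to -0.69, while BCL2L1 (1.15 and 0.97) and BIK (-0.77 and -0.72) sit close together.

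Doxorubicin changed 8 members relative to untreated A431 cells, 5 upward and 3 downward, against 80.6% of genes (40.7% upward and 39.9% downward), and 8 of 10 ranges were apart (82.9% of genes). The BH3-only genes moved most on the upward side. PMAIP1 rose 3.2-fold to 271, 251 and 260 CPM (log2 1.68 ± 0.062 SE, adjusted p = 1.1e-16). BCL2L11 rose 2.82-fold, from 22.8, 23 and 19.7 CPM to 68, 59.1 and 61.1 CPM (adjusted p = 5.2e-14), and BBC3 rose 2.17-fold to 20.9, 18.8 and 21.2 CPM (adjusted p = 1.7e-07). BIK went against them and fell 1.96-fold to 33.4, 30.2 and 31.9 CPM (adjusted p = 4.4e-10). Of the anti-apoptotic genes, MCL1 rose 1.72-fold to 604, 604 and 584 CPM and BCL2L1 1.27-fold to 213, 200 and 211 CPM, BCL2A1 fell 2.5-fold to 2.3, 2.58 and 2.21 CPM (adjusted p = 8.5e-08), and BCL2 did not pass (log2 -0.46, adjusted p = 0.069) unless untreated replicate 2 or doxorubicin replicate 1 was left out (-0.57 and -0.65, adjusted p = 0.043 and 0.026). BAK1 fell 1.72-fold to 67.7, 63.5 and 66.6 CPM (adjusted p = 8.9e-11), below every other A431 library, while BAX did not pass (log2 0.08, adjusted p = 0.35). Against the vehicle control the direction of MCL1 turned (log2 -0.45, adjusted p = 4.9e-08), and BCL2 (-0.75) and BAX (0.48) passed. Library size in place of TMM factors moved the median of all genes by 0.34 upward here, and BAX then passed at 0.42. The medians were 0.21 for the members and 0.02 for all genes. Of the 3 leukocyte markers 2, CD14 and PTPRC, reached 1 CPM under doxorubicin, and their summed level was 8.42 to 9.9 CPM against 6.87 to 8.57 CPM in untreated cells, where PTPRC was at 0; that of the fibroblast markers was 39.8 to 45.7 CPM against 21.1 to 28.6 CPM. The part of either in these changes was not tested. All 11 other family genes passed, 3 up and 8 down, led by BCL2L14 (3.03), BOK (-1.87) and HRK, a BH3-only gene (1.81). BCL2L14 had few counts in untreated cells, 12, 5 and 9, against 79, 93 and 88 under doxorubicin. Of 13 downstream genes 6 rose and 3 fell (BIRC3 -1.24, DIABLO, which encodes the inhibitor antagonist SMAC, 1.15, CASP9 -1.03).

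Adding CKI to doxorubicin changed 5 members relative to doxorubicin alone, 2 upward and 3 downward, against 63.6% of genes (33.8% upward and 29.8% downward), with 6 of 10 ranges apart (72.2% of genes). BCL2A1 rose 8.54-fold to 19.8, 19.8 and 20.4 CPM (log2 3.09 ± 0.13 SE, adjusted p = 5.1e-15), higher than in any other library of either line. BAK1 rose 1.51-fold to 99.2, 97 and 98.7 CPM (adjusted p = 1.9e-08). BCL2L11 fell 1.76-fold to 36.6, 34.4 and 34.6 CPM (adjusted p = 2.1e-09), PMAIP1 fell 1.45-fold to 178, 177 and 178 CPM (adjusted p = 6.3e-08), and BAX fell 1.16-fold to 126, 117 and 118 CPM (adjusted p = 0.015). The BAX call was lost with GC and length offsets (log2 0.02), and without doxorubicin replicate 1 or 3 or combination replicate 2 or 3 (adjusted p = 0.058 to 0.072). MCL1 did not pass, at 608, 594 and 610 CPM (log2 0.04), nor did BCL2L1 at 237, 219 and 220 CPM (log2 0.13), BIK at 27.2, 33.4 and 27.6 CPM (-0.09), BBC3 at 18.8, 19.6 and 16.2 CPM (-0.13) or BCL2 (-0.09). The medians were -0.09 for the members and 0.03 for all genes. All 11 other family genes passed, 7 up and 4 down (BCL2L12 -1.42, BCL2L14 -0.80, BCL2L13 0.70), and of 13 downstream genes 7 rose and 5 fell, with BIRC3 at 2.45 and BIRC5 at -1.72.

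Relative to CKI alone, the combination held 3 members higher and 4 lower, against 73.3% of genes (38.5% higher and 34.8% lower), with 8 of 10 ranges apart (78.8% of genes). BCL2A1 was 15.8-fold higher (adjusted p = 2.6e-16), PMAIP1 1.64-fold higher and BCL2L11 1.15-fold higher, the last with overlapping ranges and a call lost without replicate 1 or 3 of either group (adjusted p = 0.051 to 0.12). BCL2L1 and MCL1 were 1.59-fold and 1.47-fold lower (adjusted p = 3.0e-09 and 3.1e-09), BAK1 1.18-fold and BIK 1.23-fold lower. The BAK1 and BIK calls were lost with library size alone (log2 -0.04 and -0.10), a scaling that moved the median of all genes by 0.21 upward. Other family genes rose in 4 and fell in 4 of 11 cases (HRK 1.87, BCL2L14 1.32, BNIP3 0.80), and downstream genes rose in 8 and fell in 5 of 13 (BIRC3 1.28, CYCS 0.60, HTRA2 0.56).

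**Figure D4:**
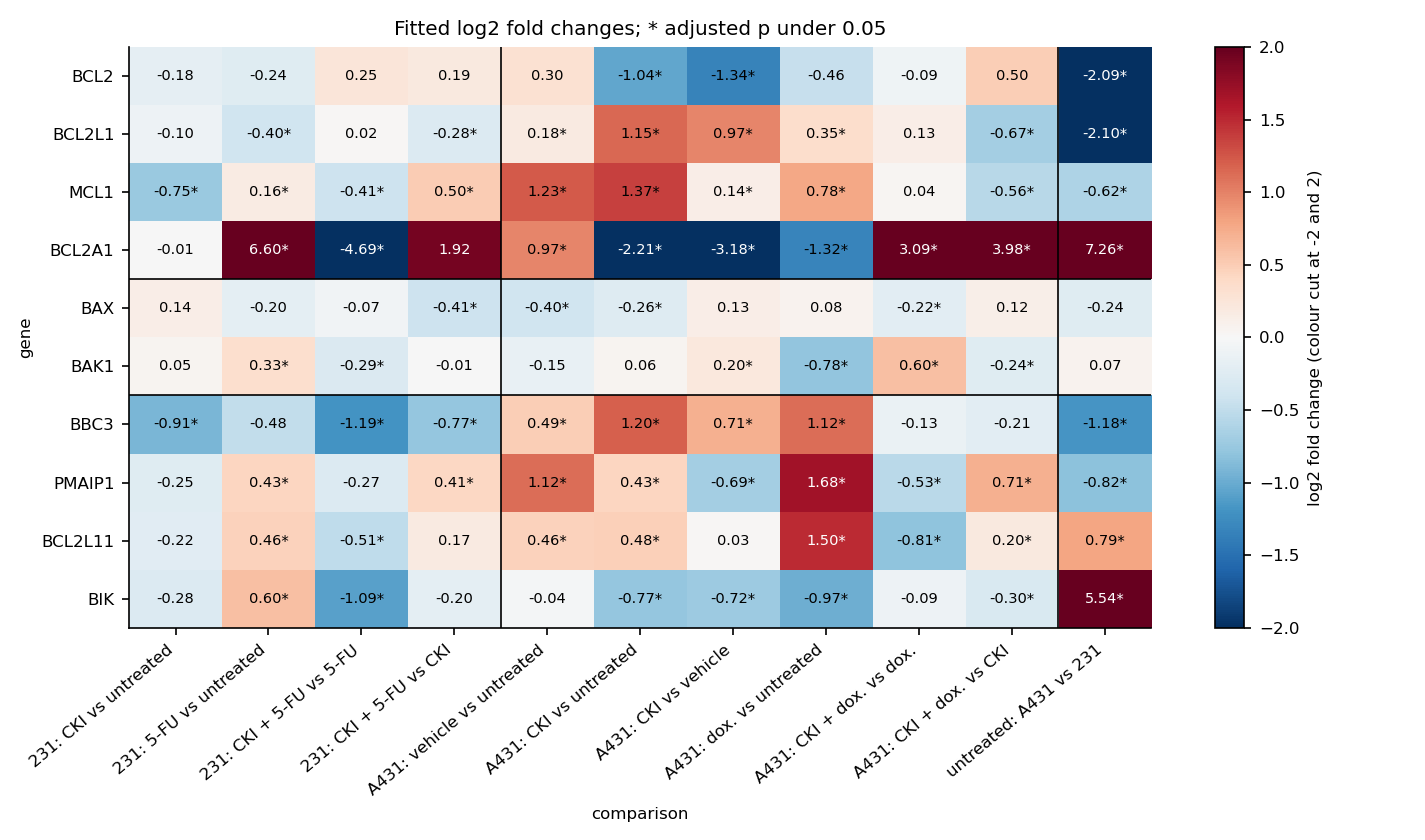
Fitted log2 fold change of each member (rows, by role) in each pairwise comparison (columns, 231 for MDA-MB-231, with the untreated lines compared in the last column); red is higher and blue lower in the first group named, colour is limited to -2 and 2, and an asterisk marks an adjusted p under 0.05. BCL2A1 spans -4.69 to 7.26, where its values with 5-FU and between the lines are of a gene that passed the filter through 1 side only, and MCL1 stands at -0.75 with CKI in MDA-MB-231 and at 1.37 in A431.

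The change with CKI differed with and without doxorubicin for 9 members, 4 with a positive and 5 with a negative difference, against 57.4% of genes (31.4% positive and 26.0% negative). BCL2A1 stood out with a change of -2.21 from CKI alone and 3.09 on doxorubicin (difference 5.31 ± 0.22, adjusted p = 1.5e-14). For MCL1 the 2 changes were 1.37 and 0.04 (difference -1.33 ± 0.075, adjusted p = 1.5e-12), for BCL2L1 1.15 and 0.13 (difference -1.02, adjusted p = 2.3e-09) and for BBC3 1.2 and -0.13 (difference -1.33, adjusted p = 2.3e-06). BCL2L11 had 0.48 and -0.81 (difference -1.30) and PMAIP1 0.43 and -0.53 (difference -0.97). BIK (0.67), BAK1 (0.54) and BCL2 (0.95, adjusted p = 0.02) had positive differences, and BAX did not pass (0.05). The BAX difference turned negative and passed with the vehicle control as the baseline. With the vehicle control as the baseline, the differences of MCL1 (-0.10, adjusted p = 0.25) and PMAIP1 (0.16, adjusted p = 0.12) did not pass. No group was labelled as doxorubicin plus vehicle, so the vehicle control replaced untreated cells only in the change without doxorubicin. The 2 changes then had unlike controls, and this fit cannot decide whether they differ. The difference of BCL2 did not pass in DESeq2 (adjusted p = 0.058) or without untreated replicate 1, CKI replicate 3, doxorubicin replicate 2 or combination replicate 1 (0.05 to 0.063). Of the other family genes 7 had positive and 2 negative differences (BCL2L14 -1.71, BNIP3 1.47, BOK 1.27), and of the downstream genes 4 and 4 (BIRC3 2.52, CASP9 0.80, DIABLO -0.67). BCL2L14 had 5 to 29 counts per library in the untreated and CKI groups.

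Between the lines, the change with CKI differed for 6 of 10 members, 5 of them more upward in A431, against 47.0% of genes (23.1% positive and 23.9% negative). Among those that passed, the widest differences were those of MCL1 (2.13 ± 0.089, adjusted p = 4.1e-09), BBC3 (2.11 ± 0.3, adjusted p = 7.6e-05) and BCL2L1 (1.26 ± 0.13, adjusted p = 6.3e-06). BCL2L11 (0.71) and PMAIP1 (0.69) followed, and BCL2 had a difference of -0.85 (adjusted p = 0.029) that was lost without A431 untreated replicate 1 or 3 or CKI replicate 3 of either line (adjusted p = 0.061 to 0.12). BAX (-0.40, adjusted p = 0.086, but passed without any 1 of the untreated MDA-MB-231 replicates, -0.22 to -0.52), BAK1 and BIK did not pass, and BCL2A1, which entered this fit through A431, was not called. With the vehicle control for A431, PMAIP1 (-0.43, adjusted p = 0.11) and BCL2L11 (0.26, adjusted p = 0.22) did not pass. MDA-MB-231 had no vehicle group, so its change with CKI stayed against untreated cells. The lines then had unlike controls, and this fit cannot decide whether their changes differ. The size of the MCL1 difference also depends on the A431 control. Its mean was 341.5 CPM in untreated A431 cells, 797.2 CPM in the vehicle control and 941.4 CPM under CKI. The median difference was 0.35 for the members and -0.01 over all genes. Other family genes had 3 positive and 5 negative differences of 11 (BCL2L12 -2.27, BCL2L2 0.84 and BCL2L14, which had 0, 1 and 0 counts under CKI in MDA-MB-231 and entered through A431), and downstream genes 5 and 4 of 13 (BIRC5 -1.89, XIAP 1.03, HTRA2 -0.66).

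The make-up of each functional group, per length, differed between the groups. These shares are descriptions with no test. BCL2L1 gave 65.7% ± 4.13 (SD, n = 3) of the summed anti-apoptotic level in untreated MDA-MB-231 cells, 75.1% ± 0.841 under CKI, 55.8% ± 0.696 under 5-FU and 63.7% ± 1.17 under both. In A431 cells MCL1 gave the largest share in every group, from 55.4% ± 1.56 in untreated cells to 70.1% ± 1.85 in the vehicle control. The A431 sum went from 99.2 CPM per kb in untreated cells to 183 in the vehicle control, 243 under CKI, 148 under doxorubicin and 171 under CKI plus doxorubicin, where BCL2A1 made up 11.7% against 0.551% under CKI. On the BH3-only side PMAIP1 gave 86.2% to 93.7% of the sum in the MDA-MB-231 groups. In A431 cells the share of BIK was 60.1% in untreated cells, 41.6% in the vehicle control, 38.5% under CKI and 19.9% under doxorubicin, and that of PMAIP1 was 34.2%, 52.7%, 50.2% and 70.8% in the same order.

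**Figure D5:**
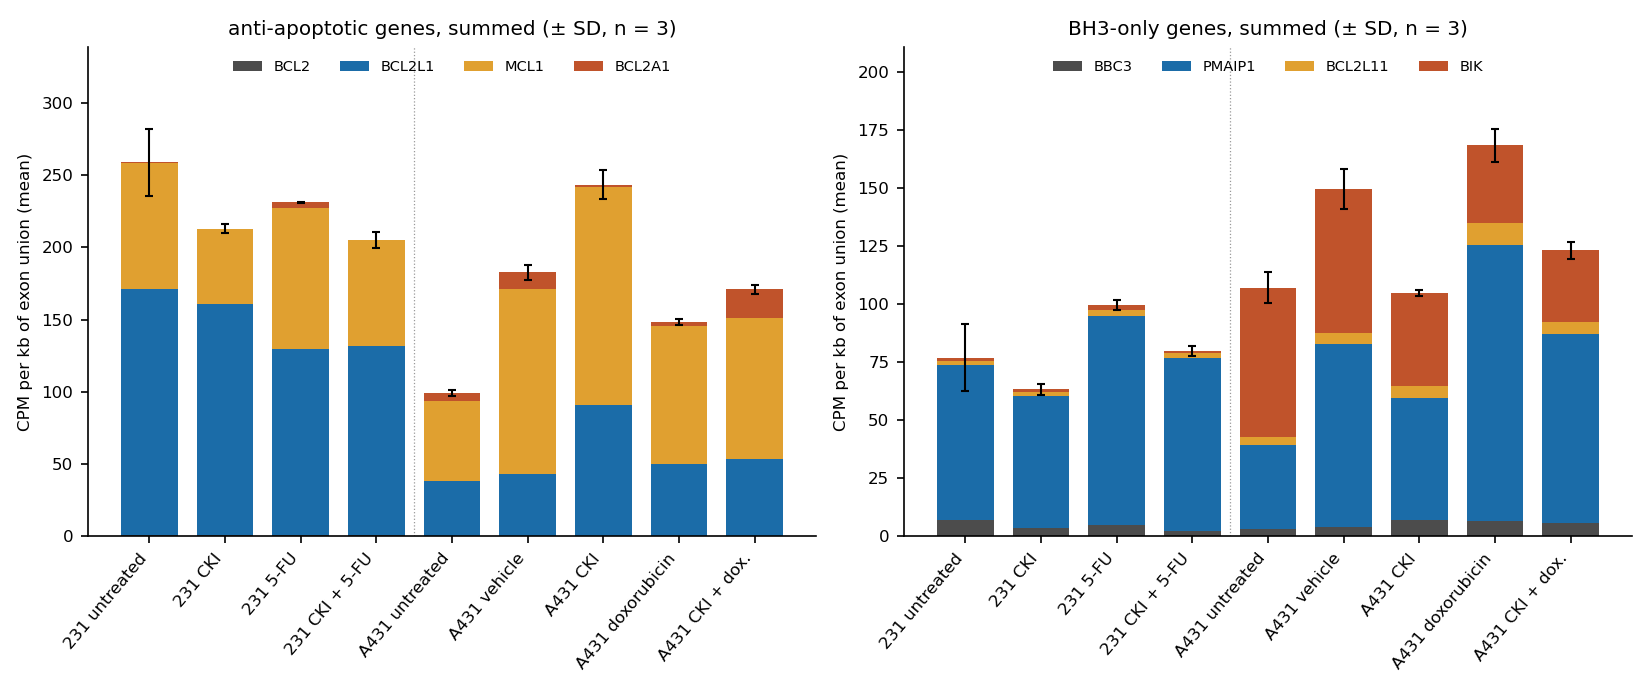
Mean level in CPM per kb of exon union, stacked by gene, of the anti-apoptotic genes (left) and the BH3-only genes (right) in the 9 groups, with error bars of ± SD of the sum over 3 libraries and axes from 0. The anti-apoptotic stack is highest in untreated MDA-MB-231 cells (259 CPM per kb) and lowest in untreated A431 cells (99.2), and the BIK segment is visible mainly in the A431 groups.

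Ordered over all 9 groups, MCL1 was highest in A431 cells under CKI (941 CPM) and lowest in MDA-MB-231 cells under CKI (326 CPM), and the ranges of 5-FU, CKI plus doxorubicin and doxorubicin (609, 604 and 597 CPM) overlapped in turn. For BCL2A1 the order ran from CKI plus doxorubicin through the vehicle control, untreated A431, 5-FU, doxorubicin and CKI in A431 without overlap, and the other 3 MDA-MB-231 groups overlapped at the bottom. PMAIP1 was highest under doxorubicin (261 CPM) and next under 5-FU (197 CPM), apart from each other, and lowest in untreated A431 cells (79.9 CPM). BCL2L11 had the same 2 groups highest within their lines, at 62.7 and 18 CPM. All 4 MDA-MB-231 groups lay above all 5 A431 groups for BCL2 and BCL2L1 and below them for BIK and BCL2L11. BAX had the lowest ratio of highest to lowest group mean, from 99.6 to 180 CPM, and 1 of the 8 neighbouring pairs in its order did not overlap.

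The gene whose log2 CPM followed each member most closely over the 27 libraries, after the mean of each line was subtracted, was sought among 12716 genes. The correlations describe libraries that share treatments and GC tilts and carry no p. BCL2L1 was closest to DAPK1 (r = 0.965), MCL1 to KLF4 (0.945), BCL2L11 to ADAMTS1 (0.945), BAX to APBA3 (0.941) and PMAIP1 to the readthrough gene ZNF670-ZNF695 (0.938). For BBC3 it was MAN2B2 (0.93), for BAK1 TBC1D25 (0.921), for BIK SH2D4A (0.91), for BCL2A1 TOMM34 (0.9) and for BCL2 WDR12 (0.822). Within single lines, r was lowest in MDA-MB-231 for BCL2 (0.524, against 0.862 in A431), BAK1 (0.672 against 0.961) and BCL2L1 (0.799 against 0.99). BCL2A1, at 0.939 in MDA-MB-231, had at most 4 counts per library there outside 5-FU alone.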

How the data were processed

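RNA sequencing of 27 libraries (9 groups of 3 replicates, taken from the sample labels) was analysed from raw counts per gene, which the authors deposited as 1 table of 24566 Entrez genes. According to the study's methods and the submitters' processing notes, reads were trimmed with Trim Galore 0.3.7 and aligned to GRCh37 (hg19) with STAR 2.5.3a. The counting tool and its use of strand are not given in the sources used here. Of the rows, 1597 had no count. Lengths and GC content came from a GRCh37 annotation and covered 99.5% of rows. Promoters came from RefSeq for GRCh38.p14.

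Counts were tested in R 4.3.3 with edgeR 4.0.16 (TMM, filterByExpr, quasi-likelihood test, Benjamini-Hochberg over all genes tested), in 1 fit per line, and in 1 fit over the 12 libraries without a chemotherapy drug or vehicle for comparisons between the lines. A gene rose or fell at an adjusted p under 0.05. DESeq2 1.42.0 was an alternative. GC and length offsets came from a lowess fit with span 0.3. Total counts were 17757206 to 22809339. Scripts were tested on simulated data.

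All 10 members are named in every comparison. From a list of 13 other family genes and one of 13 downstream genes, the up to 3 called genes with the largest change are named, and for each member the gene with the highest correlation. The values of 1 downstream gene are not reported here. Members, lists and tests were chosen with earlier results of these data known. Intervals for counts cover counting error only.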

Additional observations from a re-analysis of the deposited data

Results flagged for a closer look

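Each result here is a change with CKI that differed between conditions when the difference itself was tested (edgeR's quasi-likelihood test, Benjamini-Hochberg adjusted p under 0.05), on the log2 scale. In MDA-MB-231 cells the change with CKI on top of 5-FU minus that without it was 0.34 for MCL1 and -0.34 for BAK1. In A431 cells the same difference with doxorubicin was 5.31 for BCL2A1, 0.95 for BCL2, 0.67 for BIK and 0.54 for BAK1, and it was -1.33 for MCL1, -1.33 for BBC3, -1.30 for BCL2L11, -1.02 for BCL2L1 and -0.97 for PMAIP1. Between the lines, the change in A431 minus that in MDA-MB-231 was 2.13 for MCL1, 2.11 for BBC3, 1.26 for BCL2L1, 0.71 for BCL2L11, 0.69 for PMAIP1 and -0.85 for BCL2. All A431 changes here are against untreated cells. With the vehicle control as baseline, the doxorubicin differences of MCL1 and PMAIP1 did not pass, nor did the line differences of PMAIP1 and BCL2L11. The groups held neither doxorubicin plus vehicle nor a vehicle control of MDA-MB-231 cells. These fits therefore set changes with unlike controls side by side. Both BCL2 differences were lost in several fits with 1 library left out. No member's value was tested as outlying within its group of 3.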

How the results depend on the processing

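Alternatives were DESeq2, RLE factors, scaling by library size alone, all genes unfiltered, 10 counts in every library, GC and length offsets, the compared groups alone, a replicate block, the vehicle control as A431 control, and each library left out. Of 3643 gene-level values under them, 3405 kept their side of the threshold, 55 of them with the other sign and past it in neither fit, 143 lost the threshold, 83 gained it and 12 turned direction with a value past it. With the replicate block, 2 members were called for CKI in MDA-MB-231 and 9 in A431, and no count of called members changed in any comparison. Between the untreated lines the block fit refers to replicate 1 of each line, so it is no check of that comparison. No pairing by replicate number was seen: deviations of same-numbered libraries had a mean correlation of -0.04 in MDA-MB-231 (2 of 18 pairs over 0.1) and 0 of 30 pairs were over 0.1 in A431. GC tilts of single libraries enter these deviations, so the correlations cannot exclude pairing.

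In MDA-MB-231 cells, members called for CKI went from 2 to 4 with GC and length offsets (4 with the block added) and to 1 with the compared groups alone, which for 5-FU left 4 of 7. For CKI plus 5-FU against CKI, 5 became 3 with library size alone, 2 with offsets (2 with the block added) and 1 to 4 with a library left out. The interaction went from 2 to 5 with offsets and to between 2 and 6 with a library left out, 6 being without untreated replicate 1. The cause of these moves was not tested.

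Direction turned with offsets, without and with the block, for BIK in the vehicle control (0.21 and 0.21), BAX under CKI in A431 (0.14 and 0.14), BAX under CKI plus doxorubicin against doxorubicin (0.02 and 0.02) and BAK1 between the untreated lines (-0.32 and -0.53). The last value refers to replicate 1 of each line, because the block was set within lines, and is not the difference over all replicates. Direction turned with the vehicle control for MCL1 under doxorubicin (-0.45), for BAX (-0.35) and PMAIP1 (0.16) in the interaction of CKI and doxorubicin, and for PMAIP1 in that of line and CKI (-0.43). In these interactions only the untreated A431 cells were replaced by the vehicle control, so their sides had unlike controls. Over all genes, calls for the vehicle control went from 6748 to 3952 with offsets, 3961 with the block added and 4395 with the compared groups alone, those for CKI in MDA-MB-231 from 5066 to 2930 with the compared groups alone, and those for its interaction from 4396 to 6969 without untreated replicate 1. Library size alone moved the median of all genes by 0.34 for doxorubicin, 0.21 for CKI plus doxorubicin against CKI, 0.13 for 5-FU, 0.11 for CKI in A431 (0.11 against the vehicle control), -0.13 between the lines and -0.14 for the interaction of CKI and doxorubicin. With it the share of calls that were upward went from 47.9% to 61.1% for CKI and from 50% to 63.3% for 5-FU in MDA-MB-231, from 52.5% to 64.1% for the combination against CKI there, from 50.5% to 67.0% for doxorubicin, from 52.5% to 66.3% for CKI plus doxorubicin against CKI, and from 54.6% to 44% for the interaction of CKI and doxorubicin.

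Depth limits BCL2A1 in the MDA-MB-231 groups other than 5-FU alone, where 2 to 9 counts stand behind a group, BCL2L14 and HRK in that line, and BIK there, with 18 to 45 counts per library. It also limits BCL2L14 in the A431 groups without doxorubicin, with 5 to 29 counts per library.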
